A study of Homo sapiens with 8 samples.

Results

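The genes that carry a cell through G2 and mitosis were followed in 8 RNA-seq libraries, 4 of AsPC-1 and 4 of PANC-1 cells. They comprise 34 named genes, picked by symbol with earlier results of these data known. Each was found once among the 62649 genes of the expression table. All 34 also passed the filter on low values, which kept 19122 genes with at least 1 TPM (transcript abundance corrected for gene length and library total) in 2 or more libraries. AsPC-1 and PANC-1 are long-established human lines from pancreatic ductal adenocarcinoma, AsPC-1 from ascites and PANC-1 from a primary tumour, and the labels give the genotype of all samples as WT. Cells of each line were kept in methylcellulose for 3 days so that they formed spheroids, and then received 1 of 4 treatments for 24 h: vehicle, 10 µM roseoflavin, 1 nM trametinib, or 10 µM roseoflavin with 1 nM trametinib. Roseoflavin is a coloured analogue of riboflavin (vitamin B2) made by Streptomyces, which cells can turn into analogues of the flavin cofactors, and trametinib is an inhibitor of the kinases MEK1 and MEK2 in the RAS-MAPK pathway. Every combination of line and treatment has 1 library, so no group has a replicate of its own.

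Entry into mitosis is driven by CDK1 bound to cyclin A2 or a B-type cyclin, with PLK1 and the Aurora kinases acting beside it. The spindle checkpoint then holds the anaphase-promoting complex in check until all chromosomes are attached, after which the complex marks securin and cyclin B for destruction and the cell divides. The RNAs of these genes rise together in G2 and are low in G1 and in resting cells, so in a cell population they are widely read as a sign of how many cells are cycling. Much of this timing is set at the promoter: the cell cycle genes homology region, or CHR, is bound by the MuvB complex together with B-MYB (MYBL2) and FOXM1 in cycling cells or with RB-like proteins in resting ones, and nearby CCAAT boxes are bound by NF-Y. In bulk RNA, fewer cells in G2 or mitosis and less RNA per such cell cannot be told apart.

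The promoter stretches of 7 of the genes are printed here beside the values that follow, and not all of them show this shared layout. BUB1B has a CHR and no CCAAT box, and in ASPM the CHR lies upstream of most of its CCAAT boxes. MKI67, ASPM, PRC1 and BUB1B had the smallest p-values for roseoflavin in PANC-1. CCNB2 and PLK1 carry the layout of 1 or more CCAAT boxes followed by a CHR close to the start. PTTG1 was 1 of the 2 genes whose PANC-1 libraries did not all lie lower with roseoflavin. It has CCAAT boxes and no match to the CHR letters searched. The same holds for CCNA2, CCNB1, AURKB and KIF20A, whose PANC-1 libraries with roseoflavin did lie lower. Each run is the 200 bases before a start annotated by RefSeq on GRCh38.p14, read 5′ to 3′ on the gene's strand. Capitals mark a CHR (TTTGAA or TTCGAA) or a CCAAT box (CCAAT) on either strand, so TTCAAA and ATTGG are the same motifs read on the other strand. In MKI67 the last CHR and a CCAAT box on the other strand overlap, and in PTTG1 the run CCAATTGG holds a CCAAT box on each strand that overlap.
MKI67, chr10:128126424-128126623, minus strand: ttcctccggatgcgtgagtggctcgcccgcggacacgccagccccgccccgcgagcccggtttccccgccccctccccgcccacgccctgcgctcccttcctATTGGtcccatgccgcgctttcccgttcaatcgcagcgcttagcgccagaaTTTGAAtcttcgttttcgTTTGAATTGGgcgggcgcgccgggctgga
ASPM, chr1:197146670-197146869, minus strand: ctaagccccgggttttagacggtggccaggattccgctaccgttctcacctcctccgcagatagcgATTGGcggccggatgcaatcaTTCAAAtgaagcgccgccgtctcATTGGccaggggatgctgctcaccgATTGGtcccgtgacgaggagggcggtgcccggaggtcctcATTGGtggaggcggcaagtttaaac
PRC1, chr15:90994536-90994735, minus strand: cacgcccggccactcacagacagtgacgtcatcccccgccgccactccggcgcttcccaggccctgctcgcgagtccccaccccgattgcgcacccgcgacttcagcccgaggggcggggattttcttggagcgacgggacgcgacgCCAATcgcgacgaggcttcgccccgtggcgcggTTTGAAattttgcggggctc
BUB1B, chr15:40160869-40161068, plus strand: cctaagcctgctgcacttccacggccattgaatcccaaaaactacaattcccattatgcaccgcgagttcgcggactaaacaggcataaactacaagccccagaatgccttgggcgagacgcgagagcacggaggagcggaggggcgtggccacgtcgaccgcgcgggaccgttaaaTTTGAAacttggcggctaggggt
CCNB2, chr15:59104946-59105145, plus strand: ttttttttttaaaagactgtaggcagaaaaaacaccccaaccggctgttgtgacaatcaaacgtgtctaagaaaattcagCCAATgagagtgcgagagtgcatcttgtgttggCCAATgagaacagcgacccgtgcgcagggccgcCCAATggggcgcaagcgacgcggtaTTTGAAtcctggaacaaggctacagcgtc
PLK1, chr16:23678689-23678888, plus strand: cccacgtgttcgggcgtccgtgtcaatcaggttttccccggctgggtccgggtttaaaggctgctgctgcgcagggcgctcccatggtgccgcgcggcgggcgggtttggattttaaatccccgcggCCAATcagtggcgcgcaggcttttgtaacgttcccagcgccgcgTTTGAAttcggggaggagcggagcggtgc
PTTG1, chr5:160421655-160421854, plus strand: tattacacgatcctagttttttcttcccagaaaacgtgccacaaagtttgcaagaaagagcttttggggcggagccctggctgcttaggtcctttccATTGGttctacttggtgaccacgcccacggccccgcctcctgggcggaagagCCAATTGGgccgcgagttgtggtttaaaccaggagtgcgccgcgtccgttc

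RefSeq promoter windows, from 250 bases before to 50 after the start, were found for 29 of the 34 genes, 33 windows in all because some genes have more than 1 start; TPX2, BIRC5, UBE2C, AURKA and TTK were not among them. A CHR, searched as TTTGAA and TTCGAA on both strands, was in 24 of the 33 windows, or 72.7%, against 16.4% of all 35116 windows of the same length. A CCAAT box was in 26 windows, or 78.8%, against 34.6% of all windows, and 16 windows (48.5%) held at least 2, against 10.8%. The combination of a CHR and a CCAAT box was in 57.6% of the windows of these genes and in 6.38% of all windows. An E2F site, the element of S phase promoters, was searched as TTTCCCGC, TTTGGCGC, TTTCGCGC and TTTGCCGC on both strands. It was in 3 windows, or 9.09%, against 3.31%. These held only 2 distinct sites, in CDK1 and NUSAP1. By gene, 22 of 29 had a CHR, 23 a CCAAT box, 18 both, and CENPE and KIF2C neither. With sites in overlapping windows of 1 gene counted once, 25 of 34 CHR sites lay between 100 bases before and 50 after the start and 26 ran in the direction of the gene, whereas 30 of 51 CCAAT boxes ran in the opposite direction. In the GENCODE gene models of GRCh38, MKI67 spans chr10:128096659-128126385 and ASPM chr1:197084128-197146694, both on the minus strand, and all 34 genes are protein-coding. These are matches of letters in a window and do not show that a factor was bound there.

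**Figure D1:**
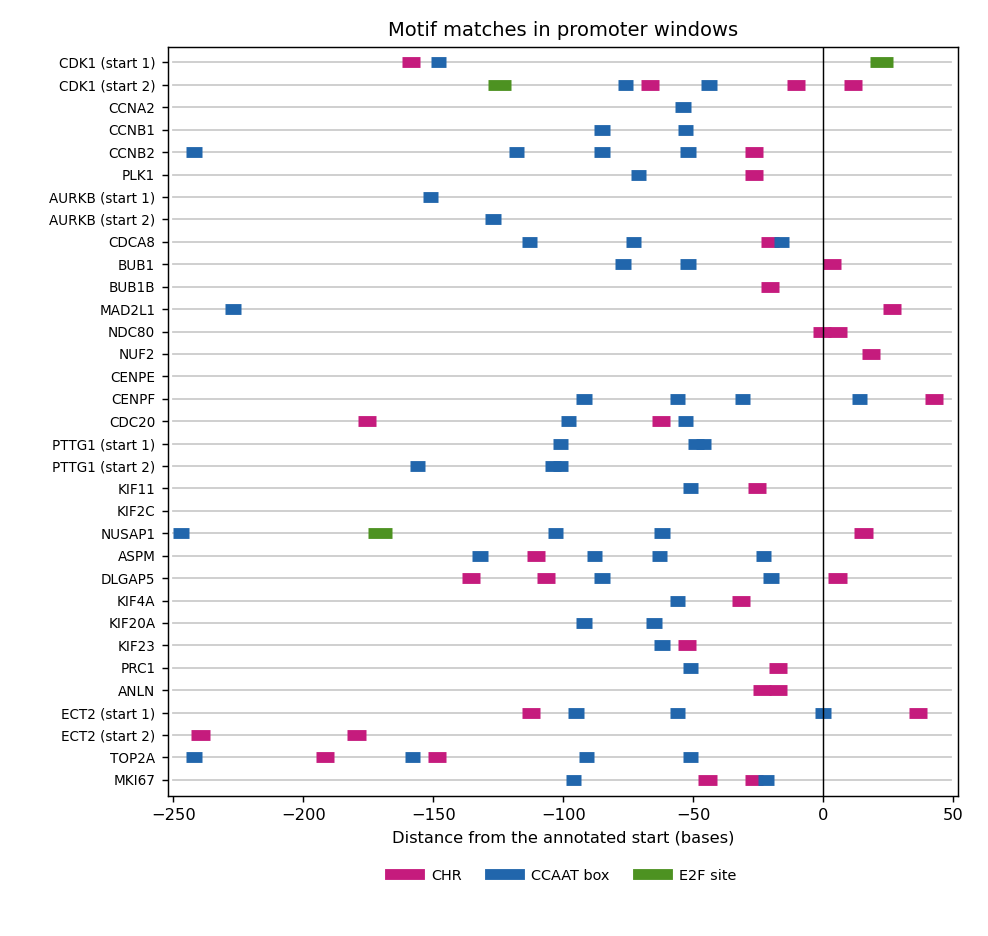
CHR, CCAAT box and E2F matches in the 33 promoter windows, with 1 line per window and distance from the annotated start in bases on the horizontal axis (0 is the start, negative is upstream). CHR matches lie mostly between 100 bases before and 50 after the start, with the CCAAT boxes of the same window often further upstream, and CENPE and KIF2C have no match.

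The libraries of a line were alike in the number of genes at 1 TPM or more, 15280 to 15580 in AsPC-1 and 17105 to 17201 in PANC-1. Mitochondrially encoded transcripts took a larger share of the AsPC-1 libraries, 41.2% to 44.1%, than of the PANC-1 libraries, 22.8% to 25.6%, and a TPM is relative to the whole library. The line labels were checked on 6 epithelial and 4 mesenchymal markers. KRT19, a duct keratin, was at 943 to 2320 TPM over all 8 libraries, EPCAM ranged from 1220 to 1490 TPM in the AsPC-1 libraries but only from 14.5 to 16.8 in those of PANC-1, and VIM from 660 to 816 and from 3130 to 3390. KRT7, another duct keratin, was only at 3.26 to 7.74 TPM over all libraries. Of the mesenchymal markers, CDH2 was listed at 0 TPM in AsPC-1 and FN1 did not exceed 0.533 TPM in any library. Of 5 markers of leukocytes and endothelium, CD3E, PTPRC, PECAM1 and VWF did not exceed 0.082 TPM in any library, and CD68, a lysosomal protein that tumour lines also make, was at 108 to 139 TPM. BUB1B, NUSAP1 and PRC1 each overlap, on the same strand, another gene listed at up to 46.7, 92.8 and 65.3 TPM, so the split of reads between them is uncertain.

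The first comparison is between the lines. In vehicle the 34 genes summed to 2339.1 TPM in PANC-1 against 1489.2 in AsPC-1, and over the 4 libraries of each line the ranges of the sums, 1456.0 to 1489.2 and 2127.1 to 2380.3 TPM, did not overlap. The highest members were UBE2C, the E2 enzyme of the anaphase-promoting complex, with a mean of 241 ± 4.50 TPM (SD, n = 4 libraries, each of another treatment) in PANC-1 against 179 ± 17.5 in AsPC-1, and TPX2, which activates Aurora A on spindle microtubules, with 247 ± 13.9 against 104 ± 2.63 TPM. CENPE, the kinetochore motor that moves chromosomes to the spindle equator, was the lowest in both lines, at 12.5 ± 0.362 TPM in PANC-1 against 9.25 ± 0.348. CENPF, a kinetochore and nuclear matrix protein, differed most, with 67.8 ± 3.80 TPM in PANC-1 against 25.4 ± 0.704 in AsPC-1, a ratio of means of 2.67, followed by PRC1, which bundles the microtubules of the central spindle, with 69.8 ± 5.18 against 27.3 ± 1.35 TPM. PLK1 and CCNA2 (cyclin A2) went the other way, PLK1 at 32.7 ± 3.12 TPM in PANC-1 against 44.2 ± 2.17 in AsPC-1, and CCNA2 at 31.7 ± 3.21 against 40.4 ± 2.40 TPM.

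**Figure D2:**
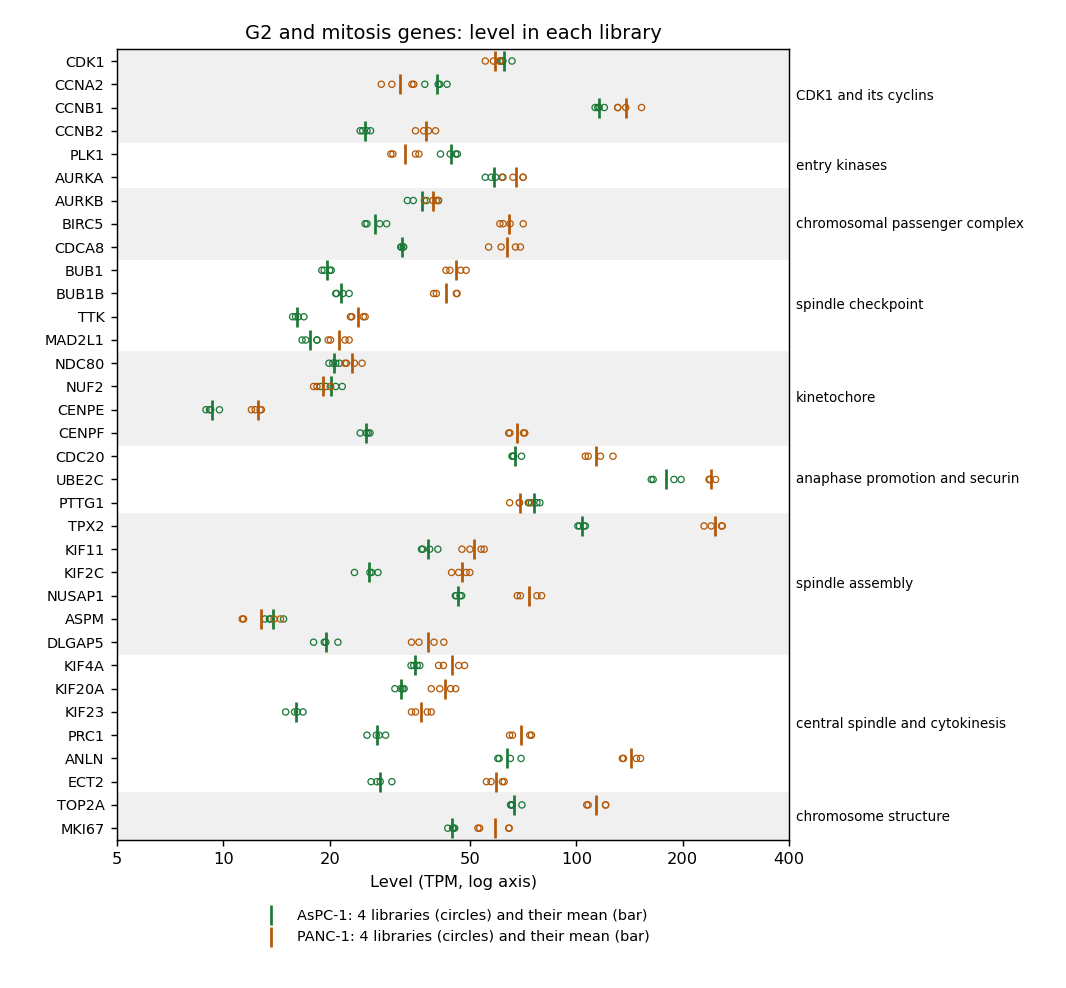
Level of each of the 34 genes in every library, in TPM on a log axis, with 1 circle per library and a bar at the mean of the 4 libraries of a line (green AsPC-1, orange PANC-1), ordered by role. CENPF, PRC1, TPX2, BIRC5 and BUB1 are well separated with PANC-1 higher, PLK1 and CCNA2 lie higher in AsPC-1, and AURKB, NUF2, PTTG1 and ASPM overlap.

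In limma on log2(TPM + 1) with Benjamini-Hochberg adjustment over all 19122 genes, 27 of the 34 genes were higher and 2 lower in PANC-1 at an adjusted p under 0.05. The line separates most of the transcriptome: 62.0% of all genes were called higher and 21.3% lower, and the members' median difference, 0.485, was below that of all genes, 0.554. ANLN had the smallest p, with a difference of 1.15 (SE 0.0350, adjusted p = 1.85e-06), followed by KIF23 with 1.14 (SE 0.0415, adjusted p = 3.51e-06) and CENPF with 1.38 (SE 0.0509, adjusted p = 3.66e-06). Next came BUB1 1.17 (SE 0.0501, adjusted p = 6.34e-06), TPX2 1.24 (SE 0.0546, adjusted p = 6.94e-06) and ECT2 1.06 (SE 0.0480, adjusted p = 7.7e-06). The other members among the 10 smallest p-values were KIF2C 0.85 (SE 0.0387, adjusted p = 7.99e-06), PRC1 1.32 (SE 0.0682, adjusted p = 1.32e-05), TOP2A 0.77 (SE 0.0438, adjusted p = 1.96e-05) and BIRC5 1.24 (SE 0.0758, adjusted p = 2.64e-05). PLK1 had -0.43 (SE 0.0736, adjusted p = 0.00247) and CCNA2 -0.34 (SE 0.0755, adjusted p = 0.00683). All 4 PANC-1 libraries lay above all 4 AsPC-1 libraries for 27 members (59.4% of all genes) and below for 3 (19.8%). CDK1, PTTG1, ASPM, AURKB and NUF2 did not pass the test, with differences from -0.14 to 0.11.

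How the libraries are scaled decides part of this comparison. With quantile normalization the median of all genes was 0.042 and that of the members 0.040, with 15 members called higher and 11 lower. With TPM recomputed without mitochondrial transcripts the medians were 0.246 and 0.107, with 16 called higher and 9 lower. Under all 3 scalings 15 members were called higher in PANC-1: BIRC5, CDCA8, BUB1, BUB1B, CENPF, CDC20, TPX2, KIF2C, NUSAP1, DLGAP5, KIF23, PRC1, ANLN, ECT2 and TOP2A. PLK1 and CCNA2 were called lower under all 3, PLK1 at -0.904 and -0.814 and CCNA2 at -0.825 and -0.731 (quantile normalization first, then without mitochondrial transcripts). CDK1 (-0.538 and -0.476), PTTG1 (-0.574 and -0.523), ASPM (-0.643 and -0.482), NUF2 (-0.597 and -0.453) and AURKB (-0.361 and -0.275), which did not pass in the TPM as deposited, were called lower under both of these scalings. The differences of members called higher were smaller under these scalings, PRC1 at 0.854 and 0.948, KIF23 at 0.636 and 0.775 and ANLN at 0.722 and 0.769. For 10 members the sign differed between scalings: CCNB1, AURKA, AURKB, MAD2L1, NDC80, CENPE, KIF11, KIF4A, KIF20A and MKI67. Of these, AURKA and NDC80 were called higher in the TPM as deposited and lower under both other scalings. MAD2L1 and CENPE were called higher as deposited and lower with quantile normalization.

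The second comparison asks what roseoflavin did in PANC-1, where nearly the whole set lay lower with the compound by a small amount, in the absence and in the presence of trametinib. The summed level of the 34 genes was 2339.1 TPM with vehicle and 2160.8 TPM with roseoflavin, a change of -7.62%, and 2380.3 TPM with trametinib and 2127.1 TPM with the combination, a change of -10.6%. Against vehicle 32 of 34 were lower (49.1% of all genes), and in the combination against trametinib 33 of 34 (47.3%). These pairs of libraries share none. In the fit of both pairs, 33 members had a value below 0 (49.2% of all genes, and 49.7% of the 9368 genes whose mean was 10 TPM or more), with a median of -0.144 where the median of all genes was 0.000. Genes with no difference, such as those listed at 0 TPM throughout a line, are not counted as below 0. Both roseoflavin libraries lay below both other PANC-1 libraries for 32 members, against 22.7% of all genes and 25.7% of those with a mean of 10 TPM or more.

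No member passed the adjusted threshold for roseoflavin in PANC-1, nor did any of the 19122 genes (0.0%). At an unadjusted p under 0.05, 20 members were called, each of them lower, against 5.01% of all genes. The count at that unadjusted threshold was 12 without the mean-variance trend in limma, 3 without the PANC-1 vehicle library or without the PANC-1 roseoflavin library, and 2 without the PANC-1 trametinib or the PANC-1 combination library. With 1 library per group the fit has only 2 residual degrees of freedom, 1 from each line, and limma moderates the spread over all genes. Its p-values therefore rest on how differently a gene behaved with and without the other compound in both lines, not in PANC-1 alone. With a PANC-1 library left out, a gene's own spread comes from AsPC-1 alone. The sizes below are given with that limit.

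**Figure D3:**
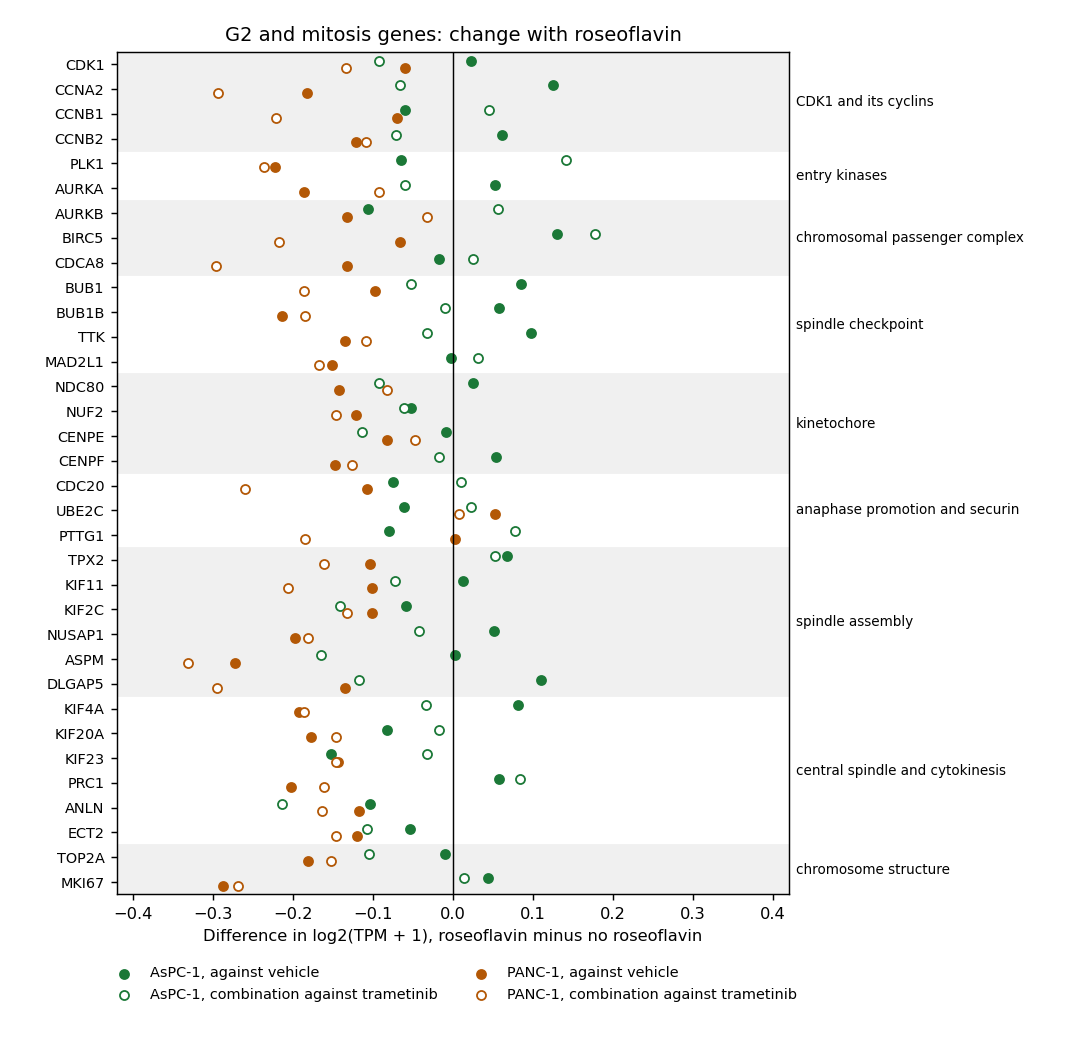
Difference in log2(TPM + 1) with roseoflavin for each of the 34 genes, with filled circles for roseoflavin against vehicle and open circles for the combination against trametinib (green AsPC-1, orange PANC-1). The orange circles lie left of 0 for 32 genes in both comparisons, UBE2C and PTTG1 being the exceptions, while the green circles lie on both sides.

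CDK1 and its cyclins had a median change of -0.130 in PANC-1. CCNA2 was at 34.2 TPM with vehicle, 30.0 with roseoflavin, 34.6 with trametinib and 28.0 with the combination, a fitted change of -0.24 (SE 0.0672, adjusted p = 0.411). CCNB1 (cyclin B1) was at 138, 131, 153 and 131 TPM in the same order, so that its trametinib library was the high one and both roseoflavin libraries were the low ones. CDK1 itself was at 60.7, 58.2, 60.7 and 55.2 TPM, with no overlap between the groups with and without roseoflavin.

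Among the kinases of mitotic entry, PLK1, which acts from centrosome maturation to cytokinesis, was at 35.0 TPM with vehicle, 29.8 with roseoflavin, 35.8 with trametinib and 30.2 with the combination. The 2 roseoflavin libraries lay together well below the other 2, a change of -15.2% in mean TPM and of -0.23 on the fitted scale (SE 0.0641, adjusted p = 0.409). AURKA (Aurora A, the spindle pole kinase) was at 70.6, 61.9, 70.6 and 66.1 TPM, lower in both roseoflavin libraries by differing amounts. In the chromosomal passenger complex, CDCA8 (borealin) was at 67.2, 61.2, 69.4 and 56.4 TPM, and the complex's survivin (BIRC5) and kinase (AURKB) had fitted changes with a median, over the 3 genes, of -0.142.

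The 4 spindle checkpoint genes, which sense unattached kinetochores, were lower in both roseoflavin libraries, with a median of -0.151. BUB1B (BUBR1, an inhibitor of the anaphase-promoting complex) was at 45.9 TPM with vehicle, 39.4 with roseoflavin, 45.7 with trametinib and 40.1 with the combination, a change of -0.20 (SE 0.0425, adjusted p = 0.395). BUB1, the kinase of the same pathway, was at 47.0, 43.8, 48.7 and 42.7 TPM. The kinetochore genes had a median of -0.124, CENPF being at 71.4, 64.3, 70.8 and 64.8 TPM and NUF2, a part of the microtubule-binding NDC80 complex, at 20.1, 18.4, 20.1 and 18.0 TPM.

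Anaphase promotion was the role with the exceptions. CDC20, the activator that brings substrates to the anaphase-promoting complex, was at 117 TPM with vehicle, 108 with roseoflavin, 127 with trametinib and 106 with the combination, lower in both roseoflavin libraries. UBE2C was at 238, 248, 238 and 239 TPM, with both roseoflavin libraries slightly above the others, a change of 0.03 (SE 0.0407, adjusted p = 0.826). PTTG1 (securin, which restrains the cohesin-cutting protease) was at 68.9, 69.0, 73.7 and 64.7 TPM, so that its groups overlapped. UBE2C was -0.006 with TPM recomputed without mitochondrial transcripts, whose share was 25.6% with vehicle, 23.7% with roseoflavin, 24.8% with trametinib and 22.8% with the combination.

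The 6 spindle assembly genes had a median of -0.172. ASPM, which focuses spindle poles and sets spindle orientation, had the largest change of all members, with 13.9 TPM with vehicle, 11.3 with roseoflavin, 14.5 with trametinib and 11.4 with the combination. That is a change of -20.3% in mean TPM and of -0.30 on the fitted scale (SE 0.0633, adjusted p = 0.39), with both roseoflavin libraries well below the others. TPX2 was at 259, 241, 258 and 230 TPM, and NUSAP1, a microtubule-bundling protein, at 79.7, 69.4, 77.3 and 68.0 TPM with a change of -0.19 (SE 0.0425, adjusted p = 0.397).

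The 6 central spindle and cytokinesis genes had a narrow range of fitted changes, from -0.190 to -0.133. ANLN (anillin, the scaffold of the contractile ring) was at 148 TPM with vehicle, 136 with roseoflavin, 152 with trametinib and 135 with the combination. PRC1 was at 74.6, 64.7, 73.8 and 65.9 TPM, a change of -0.18 (SE 0.0384, adjusted p = 0.39). Both genes of chromosome structure lay lower with no overlap. TOP2A, the topoisomerase that untangles sister chromatids, was at 121, 107, 121 and 108 TPM. MKI67, the Ki-67 antigen that coats mitotic chromosomes and is the usual proliferation stain, was at 64.5, 52.6, 64.3 and 53.2 TPM, nearly the same in both pairs of libraries, at -17.8% in mean TPM and -0.28 on the fitted scale (SE 0.0367, adjusted p = 0.28).

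Across the 34 members, the change with roseoflavin against vehicle and that with the combination against trametinib had a Pearson r of 0.443 and a Spearman rho of 0.248 in PANC-1. In AsPC-1 the same coefficients were 0.044 and -0.052. Over all 19122 genes Pearson's r was 0.067 and 0.043. For trametinib (against vehicle, and the combination against roseoflavin) Pearson's r in AsPC-1 was 0.462 and Spearman's rho 0.331, with 0.11 for Pearson's r over all genes. The PANC-1 libraries gave -0.090, -0.086 and -0.008 for the same 3 coefficients. These are correlations across genes, which are not independent replicates. All genes tested include many at lower levels than the members, whose changes spread more widely. Coefficients for genes at the members' levels alone were not computed. The combination against vehicle, which uses the vehicle library of the other contrasts again, gave a summed change of -9.06% in PANC-1 and of -2.23% in AsPC-1.

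**Figure D4:**
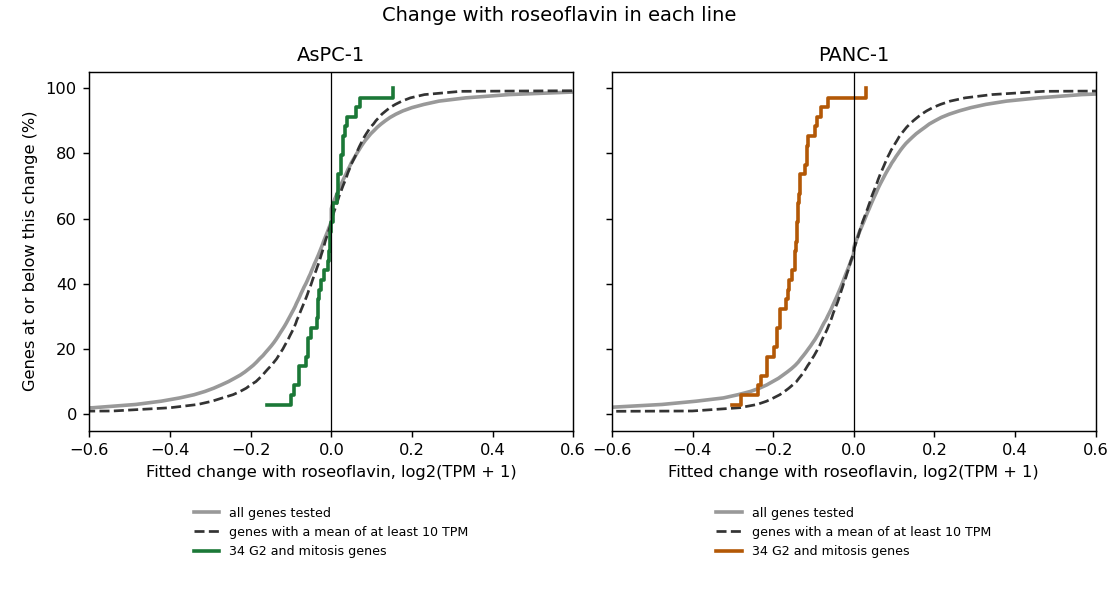
Cumulative share of genes, in percent, at or below each fitted change with roseoflavin on the log2(TPM + 1) scale, for the 34 genes (coloured steps), all genes tested (grey) and genes whose mean was 10 TPM or more (dashed). In PANC-1 the members' steps lie left of 0 in a narrow band with a median of -0.144, and in AsPC-1 they rise around 0 with a median of -0.004.

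In AsPC-1 the set stayed near its level in vehicle at the same dose and time, in the TPM as deposited. The summed level was 1489.2 TPM with vehicle and 1478.8 TPM with roseoflavin, a change of -0.698%, and 1471.8 TPM with trametinib and 1456.0 TPM with the combination, a change of -1.07%. In the fit 20 of 34 members were below 0, against 58.8% of all genes, and their median was -0.004 where that of all genes was -0.028. Both roseoflavin libraries were below both others for 5 members (21.6% of all genes) and above for 2 (10.6%). No gene passed the adjusted threshold (0.0%), and at an unadjusted p under 0.05 there were 2 members, 1 lower (8.57% of all genes) and 1 higher (2.75%). That count of 2 became 0 without the mean-variance trend. It was 1 with quantile normalization, without mitochondrial transcripts, without the AsPC-1 trametinib or combination library and without any 1 PANC-1 library. The mitochondrial share in AsPC-1 was 41.2% with vehicle, 44.1% with roseoflavin, 42.2% with trametinib and 41.3% with the combination. With TPM recomputed without these transcripts, 14 of 34 members were below 0. Their median was then 0.020, where that of all genes was -0.010.

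Those 2 were ANLN and BIRC5. ANLN was at 65.0 TPM with vehicle, 60.4 with roseoflavin, 69.7 with trametinib and 59.9 with the combination, a change of -0.16 (SE 0.0453, adjusted p = 0.401), and was thus lower with roseoflavin in both lines. BIRC5, which encodes survivin, was at 25.2, 27.7, 25.5 and 29 TPM, a change of 0.15 (SE 0.0543, adjusted p = 0.441), with both roseoflavin libraries above both others in this line. KIF2C, a microtubule-depolymerizing kinesin, had the next smallest p, with -0.10 (SE 0.0437, adjusted p = 0.481). For most named members the 4 AsPC-1 libraries stayed close: MKI67 was at 43.2, 44.6, 44.8 and 45.2 TPM.

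Several other members were also close over the 4 AsPC-1 libraries, but not all. UBE2C ranged there from 163 to 198 TPM, AURKB from 33.2 to 40.6 and CCNA2 from 37.2 to 43.0. CDCA8 was at 32.3, 31.9, 31.8 and 32.4 TPM, and CENPF at 24.4, 25.4, 26 and 25.7 TPM. BUB1 was at 19.0, 20.2, 20 and 19.3 TPM, BUB1B at 21.8, 22.7, 20.9 and 20.8 TPM, and TPX2 at 101, 105, 102 and 106 TPM. ASPM, the member with the largest change in PANC-1, was at 13.5, 13.6, 14.8 and 13.1 TPM, with its trametinib library the high one.

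The difference between the lines in their change with roseoflavin was tested in the same fit. It was below 0, that is, more negative in PANC-1, for 32 of 34 members (42.1% of all genes), with a median of -0.145 where that of all genes was 0.036. No gene passed the adjusted threshold (0.0%), and 10 members had an unadjusted p under 0.05, all of them more negative in PANC-1, against 3.54% of all genes. That count was 4 without the mean-variance trend, 5 without the PANC-1 vehicle or roseoflavin library and 2 without the PANC-1 trametinib or combination library. MKI67 had a difference of -0.31 (SE 0.0519, adjusted p = 0.336), PRC1 -0.25 (SE 0.0542, adjusted p = 0.353) and BIRC5 -0.30 (SE 0.0768, adjusted p = 0.37). BIRC5, TPX2, PRC1 and MKI67 were lower in both PANC-1 comparisons and higher in both AsPC-1 comparisons, a pattern of 5.32% of all genes.

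Averaged over both lines, the change with roseoflavin was below 0 for 32 of 34 members (57.8% of all genes), with a median of -0.085 where that of all genes was -0.017. No gene passed the adjusted threshold (0.0%), and 7 members had an unadjusted p under 0.05, all lower (5.07% of all genes). That count was 0 without the line in the model, 1 without the PANC-1 roseoflavin, trametinib or combination library, and 2 with quantile normalization or without the PANC-1 vehicle library. It was 4 without the mean-variance trend, without mitochondrial transcripts or without the AsPC-1 combination library, and 14 without the AsPC-1 vehicle library. NUF2, CENPE, KIF2C, KIF20A, KIF23, ANLN, ECT2 and TOP2A were lower in 4 of 4 matched comparisons, 8 members against 10.2% of all genes. ANLN had the smallest p, with a change of -0.15 (SE 0.0336, adjusted p = 0.599), followed by KIF23, a motor of the centralspindlin complex, with -0.12 (SE 0.0379, adjusted p = 0.659), and ASPM with -0.19 (SE 0.0615, adjusted p = 0.66).

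The third comparison is the change with 1 nM trametinib. In PANC-1 the set lay near its level without the compound: the summed level differed by 1.76% against vehicle and by -1.56% in the combination against roseoflavin. Of the 34 members 14 had a fitted value below 0 (43.6% of all genes), with a median of 0.006 where that of all genes was 0.009. No gene passed the adjusted threshold (0.0%), and no member reached an unadjusted p under 0.05, against 4.81% of all genes. The smallest p-values were those of KIF20A at 0.06 (SE 0.0416), CCNB2 at 0.07 (SE 0.0509) and CCNB1 at 0.07 (SE 0.0572), each with an adjusted p of 1.0. Both trametinib libraries were below both others for 0 members (11.6% of all genes) and above for 0 (16.1%), so the groups overlapped for every member.

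In AsPC-1 the differences with trametinib went in both directions. The summed level differed by -1.17% against vehicle and by -1.54% in the combination against roseoflavin, 12 of 34 members had a fitted value below 0 (41.0% of all genes), and the median was 0.019 where that of all genes was 0.016. No gene passed the adjusted threshold (0.0%), and 4 members had an unadjusted p under 0.05, 2 lower (4.65% of all genes) and 2 higher (9.42%). That count was 1 without the mean-variance trend or without any 1 of the 4 PANC-1 libraries, 2 without the AsPC-1 vehicle or trametinib library, and 7 with no filter on low values. The groups did not overlap for 14 members, 7 with both trametinib libraries lower (13.3% of all genes), namely AURKB, BUB1B, MAD2L1, CDC20, UBE2C, KIF2C and PRC1, and 7 with both higher (24.0%), namely CCNA2, AURKA, NUF2, CENPF, KIF11, ECT2 and MKI67.

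UBE2C had the largest of these differences. It was at 198 TPM with vehicle, 189 with roseoflavin, 163 with trametinib and 165 with the combination, so that both trametinib libraries stood well below the others, by -15.3% in mean TPM and -0.24 on the fitted scale (SE 0.0407, adjusted p = 0.272). AURKB, the kinase of the chromosomal passenger complex, was at 40.6, 37.6, 33.2 and 34.5 TPM, a change of -0.20 (SE 0.0609, adjusted p = 0.323). NUF2 was at 19.5, 18.8, 21.7 and 20.8 TPM, a change of 0.14 (SE 0.0417, adjusted p = 0.322). CCNA2 was at 37.2, 40.6, 43.0 and 41.0 TPM and AURKA at 55.2, 57.4, 61.6 and 59.0 TPM, each with its trametinib library the highest.

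Other AsPC-1 members varied little, or without a common order, under trametinib. PLK1 was at 46.0, 43.9, 41.2 and 45.5 TPM and CCNB1 at 120, 115, 113 and 116 TPM, both with the trametinib library lowest and the vehicle library highest. CDC20 was at 69.9, 66.4, 65.7 and 66.1 TPM, TOP2A at 65.8, 65.3, 70.1 and 65.1 TPM, and PTTG1 at 77.3, 73.1, 74.6 and 78.8 TPM. In the test of the difference between the lines 1 member, UBE2C, had an unadjusted p under 0.05 (3.68% of all genes higher in PANC-1), at 0.21 (SE 0.0575, adjusted p = 0.496), followed by AURKB at 0.23 (SE 0.0861, adjusted p = 0.522) and NUF2 at -0.16 (SE 0.0589, adjusted p = 0.526). That count was 0 without any 1 PANC-1 library or without the mean-variance trend, 2 with a mean of 10 TPM or more, with quantile normalization or without mitochondrial transcripts, and 4 with no filter or without the AsPC-1 roseoflavin or combination library. Of all 34 members 19 were below 0 in that test (53.2% of all genes), the median was -0.019, and no gene passed the adjusted threshold (0.0%). Over both lines the median change with trametinib was 0.014, 14 of 34 members were below 0 (41.0% of all genes), and UBE2C, at -0.13 (SE 0.0532, adjusted p = 0.861, the only member at an unadjusted p under 0.05, against 1.78% of all genes lower), and KIF2C were lower in 4 of 4 matched comparisons (4.54% of all genes). KIF2C had a change of -0.08 (SE 0.0354, adjusted p = 0.861) and AURKA 0.07 (SE 0.0458, adjusted p = 0.861). The count of 1 for UBE2C became 0 without any 1 AsPC-1 library, without the PANC-1 roseoflavin library, without the mean-variance trend or without the line in the model, and 2 with a pseudocount of 0.1 or no filter.

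**Figure D5:**
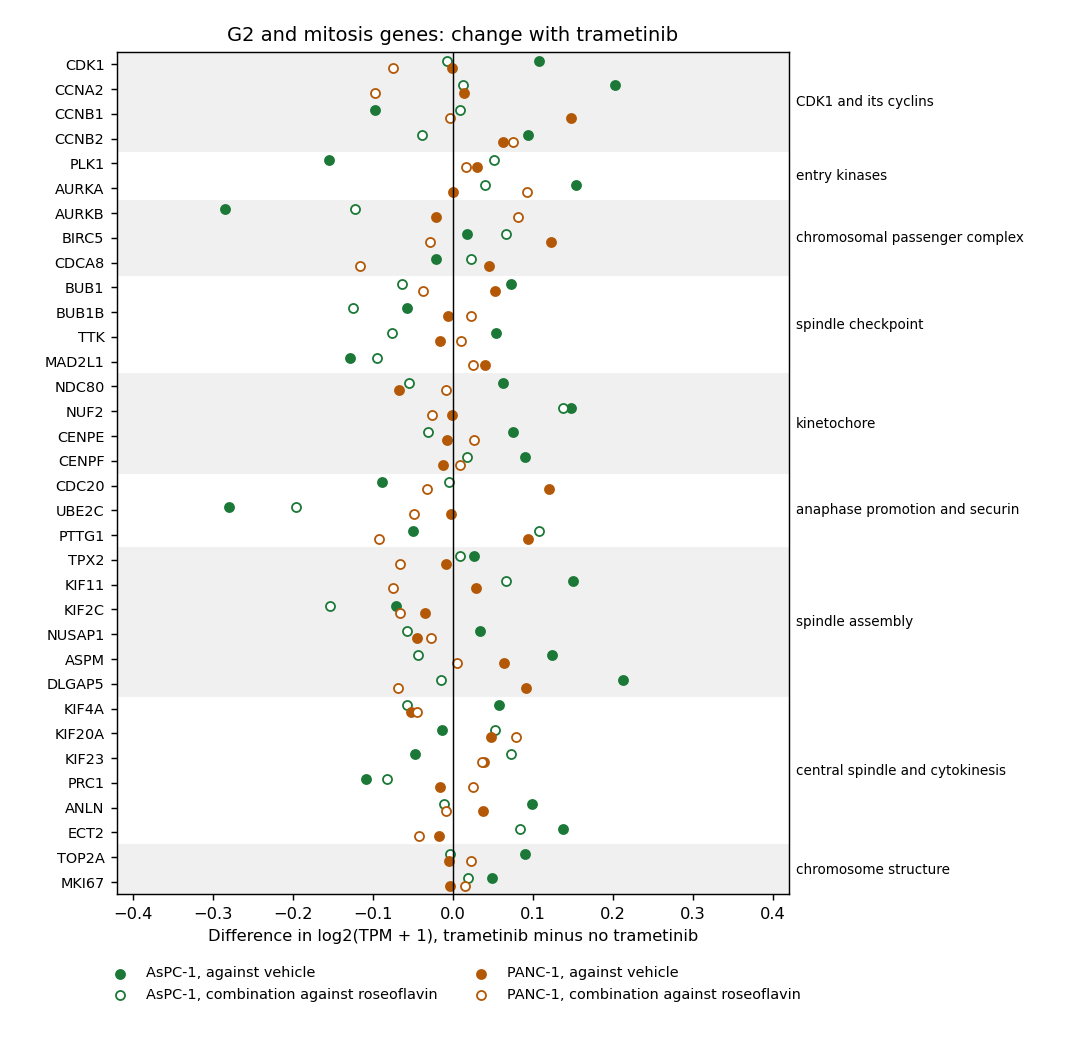
Difference in log2(TPM + 1) with trametinib for each of the 34 genes, with filled circles for trametinib against vehicle and open circles for the combination against roseoflavin (green AsPC-1, orange PANC-1). In AsPC-1 AURKB (-0.285) and UBE2C (-0.280) stand lowest against vehicle and UBE2C (-0.196) in the combination against roseoflavin, and the orange circles scatter around 0.

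Whether the compounds' effects added up was tested as the product of roseoflavin and trametinib over both lines. The model holds each compound's effect equal in both lines. Where that effect differs between the lines, the difference goes into the residual spread and raises the SE and the p-value. A lack of small p-values here therefore does not show that the effects added up. The product was below 0 for 27 of 34 members (42.4% of all genes), with a median of -0.035 where that of all genes was 0.025. No gene passed the adjusted threshold (0.0%), and no member reached an unadjusted p under 0.05 (2.80% of all genes). DLGAP5, a spindle protein that is a target of Aurora A, had the smallest p, with a product of -0.19 (SE 0.1237, adjusted p = 1.0), and was at 39.5, 35.8, 42.1 and 34.1 TPM in PANC-1 against 18.0, 19.5, 21.1 and 19.3 in AsPC-1. CDK1, at -0.10 (SE 0.0831), and BUB1, at -0.11 (SE 0.1003), followed, both with an adjusted p of 1.0. Without any 1 library the median ranged from -0.104 to 0.018. It was above 0 without the AsPC-1 vehicle (0.018), AsPC-1 roseoflavin (0.014) or PANC-1 combination library (0.017).

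Other genes of the pathway, in lists by role, were described in the same way for roseoflavin. None of their genes passed the adjusted threshold, in either line or with either compound. The counts of each list can be set beside all genes, of which 49.2% were below 0 with roseoflavin in PANC-1 and 58.8% in AsPC-1. Of 32 other mitosis genes (condensin, centralspindlin, kinetochore and kinesin genes among them), 31 were below 0 in PANC-1, with a median of -0.135, and 23 in AsPC-1, with a median of -0.020. CDCA3, a trigger of mitotic entry, was at 15.5, 12.8, 16.3 and 12.7 TPM in PANC-1, a change of -0.30 (SE 0.0586, adjusted p = 0.383). ESPL1 (separase, the protease that PTTG1 restrains) was at 17.8, 14.1, 17.9 and 15.3 TPM there. Of 26 genes of S phase and replication, 25 were below 0 in PANC-1, with a median of -0.132, whereas 7 were below 0 in AsPC-1, with a median of 0.044, so the lower values in PANC-1 were not restricted to genes of G2 and mitosis. CHAF1B, a chromatin assembly factor subunit, had the largest of these in PANC-1 at -0.27 (SE 0.0868, adjusted p = 0.446), and GINS3 had -0.21 (SE 0.1364, adjusted p = 0.625). The largest in AsPC-1 were FEN1 at 0.16 and UNG at 0.12 among the S phase genes, and KIF18A at -0.20 and FAM83D at -0.115 among the other mitosis genes.

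The regulators of these promoters had smaller differences as a list. Of 15, 11 were below 0 in PANC-1, with a median of -0.064, and 10 in AsPC-1, with a median of -0.024. The activators FOXM1 and MYBL2 were the largest in PANC-1. FOXM1 was at 32.1, 26.5, 31.1 and 27.5 TPM there, a change of -0.22 (SE 0.0538, adjusted p = 0.404), and at 27.9, 29.3, 27.8 and 27.0 TPM in AsPC-1. MYBL2 was at 113, 95.2, 113 and 97.2 TPM in PANC-1, a change of -0.23 (SE 0.0612, adjusted p = 0.406), and at 82.0, 78.4, 75.7 and 83.3 TPM in AsPC-1. Both PANC-1 roseoflavin libraries were thus the low ones for each activator. E2F5, on the same list, went the other way in PANC-1, at 6.79, 8.13, 7.13 and 8.37 TPM. RBL2, an RB-like repressor of the resting state, was at 21.8, 18.2, 24.3 and 19.6 TPM in AsPC-1, a change of -0.27 (SE 0.0519, adjusted p = 0.38), and LIN9 of the MuvB complex had -0.225 there.

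Of 10 controls of mitotic entry (such as the CDC25 phosphatases and WEE1), 7 were below 0 in PANC-1, with a median of -0.121, and 4 in AsPC-1, with a median of 0.020. GTSE1 was at 24.1, 20.5, 25 and 20.1 TPM in PANC-1, a change of -0.26 (SE 0.0508, adjusted p = 0.383), and had -0.15 in AsPC-1. CCNF (cyclin F) had -0.24 in PANC-1 (SE 0.0699, adjusted p = 0.428), and CKS1B, a subunit of CDK complexes, 0.11 in AsPC-1. The 17 genes of the anaphase-promoting complex and its regulators, most of which are not periodic, had medians of -0.037 and 0.004, with 9 and 8 below 0. ANAPC7, at -0.18, and FBXO5 (EMI1, an inhibitor of the complex), at -0.15, were the largest in PANC-1, and UBE2S, at 0.25, and CDC16, at -0.17, in AsPC-1. Of 7 CDK inhibitors, 2 were below 0 and 3 above in PANC-1, where CDKN2A and CDKN2B were listed at 0 TPM, and 6 were below 0 in AsPC-1. CDKN1A (p21) was at 128, 122, 130 and 125 TPM in PANC-1, so each PANC-1 library with roseoflavin was slightly below its partner without it. CDKN2C (p18) was at 52.2, 41.1, 54.6 and 46.8 TPM in PANC-1, a change of -0.28 (SE 0.0594, adjusted p = 0.395), and CDKN1C (p57) had 0.17 there. In AsPC-1 CDKN1B (p27) had -0.25 and CDKN1C 0.09.

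With trametinib the same lists had medians between -0.083 and 0.029, taking both lines. The 26 genes of S phase and replication were the lowest. In AsPC-1 21 were below 0 (41.0% of all genes), with a median of -0.083. In PANC-1 19 were below 0 (43.6% of all genes), with a median of -0.048. CDC45, a subunit of the replicative helicase, had a change of -0.42 in AsPC-1 (SE 0.0868, adjusted p = 0.278), and GINS2, of the same helicase, -0.335; in PANC-1 GINS2 had -0.21 and CCNE1 (cyclin E1) -0.20. The 32 other mitosis genes had medians of -0.020 in AsPC-1 and 0.023 in PANC-1, close to those of the 34 genes; their largest differences were KIF18B at -0.26 and PLK4 at -0.22 in AsPC-1, and SPC25 at -0.19 and CDCA2 at 0.17 in PANC-1. In AsPC-1 the largest of the other lists were LIN52 at 0.43 and LIN9 at 0.20 (regulators), BORA at 0.16 and CDC25A at -0.15 (entry), CDC27 at 0.18 and ANAPC11 at -0.145 (anaphase-promoting complex), and CDKN2C at 0.28 and CDKN1B at 0.24 (CDK inhibitors). In PANC-1 they were RBL1 at 0.11 and NFYA at -0.075, CKS1B at 0.175 and PKMYT1 at 0.11, ANAPC11 at 0.16 and ANAPC2 at 0.10, and CDKN1C at 0.16 and CDKN2C at 0.12.

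Set against the promoter matches, the 22 members with a CHR had a median roseoflavin change in PANC-1 of -0.164, with a range from -0.302 to -0.097, and the 7 members without one had -0.117, from -0.238 to -0.064. With a CCAAT box the median was -0.162 over 23 genes, and without one -0.126 over 6. The groups overlap over most of their ranges, and these values are a description with no test. ASPM and MKI67, both with a CHR and CCAAT boxes in the stretches printed above, had the largest changes. BUB1B, with a CHR and no CCAAT box, was at -0.20, and CCNA2, with a CCAAT box and no match to the CHR letters searched, at -0.24.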

How the data were processed

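RNA was measured in 8 libraries, 1 for each of 4 treatments in AsPC-1 and PANC-1. Per the labels' protocols, total RNA was column-purified and libraries were made with a stranded kit that selects polyadenylated RNA. The authors deposited 1 table of TPM. Each value column names a line and a treatment, per the file headers. The submitters' processing notes name STAR 2.7.3a, HTSeq 2.0.2 and hg38; the annotation, gene lengths and counting options are not given in the sources used here. TPM keep no depth, so depth is unknown and no counting interval could be given. Blank rows (985926) were dropped and 0 value columns lacked a sample.

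Samples were grouped by the line and treatment in their labels. Genes that reached 1 TPM in at least 2 libraries were kept. Their values were taken as log2(TPM + 1), which understates differences of low genes. Models were fitted over all 19122 genes with limma 3.58.1 in R 4.3.3 (mean-variance trend, Benjamini-Hochberg adjustment, threshold 0.05) and were tested on simulated data. The main model has line, roseoflavin within line and trametinib within line, with 2 residual degrees of freedom; the models over both lines, with the product of the compounds and for the line have 4, 3 and 3. No group has a replicate, so p-values measure only the spread that the model leaves between libraries, which may be technical. The vehicle and other libraries of a line are shared by the comparisons of both compounds. The unadjusted threshold of 0.05 is descriptive.

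Members named with a value in every library were, in each of 9 roles, the member with the highest mean TPM and the member with the largest change with roseoflavin over both lines, and any that went against the majority in both lines; for each test the 3 members with the smallest p are named (the 10 smallest, and those called lower, between the lines), and of each other list the 2 with the largest change. Values given for other genes, such as CDKN1A, were chosen after they were seen. The members and all lists were chosen with earlier results of these data known. Alternatives were another pseudocount (0.1), no filter, a mean of at least 10 TPM, quantile normalization, TPM rescaled without mitochondrial transcripts, no trend, no line term, and each library left out. Promoters came from RefSeq (GRCh38.p14) by symbol and gene spans from GENCODE.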

Additional observations from a re-analysis of the deposited data

Results flagged for a closer look

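In 8 cases all matched comparisons of a compound lay below 0 in one line and above 0 in the other; the difference between the lines was tested in each and did not pass the adjusted threshold (limma, Benjamini-Hochberg over all genes).

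For roseoflavin these were MKI67, PRC1, BIRC5 and TPX2, each lower in PANC-1 and higher in AsPC-1, a pattern of 5.32% of all genes. MKI67 had differences of -0.288 and -0.269 in PANC-1 (against vehicle, and on top of trametinib) and of 0.044 and 0.014 in AsPC-1, and PANC-1 minus AsPC-1 was -0.31 (adjusted p = 0.336). PRC1 had -0.203 and -0.161 against 0.058 and 0.084, a difference of -0.25 (adjusted p = 0.353). BIRC5 had -0.066 and -0.218 against 0.130 and 0.178, a difference of -0.30 (adjusted p = 0.37). TPX2 had -0.104 and -0.161 against 0.068 and 0.052, a difference of -0.19 (adjusted p = 0.37).

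For trametinib these were MAD2L1, NUF2, ECT2 and TPX2, with smaller differences, some of them from values close to 0. The share of all genes with opposite signs in the lines was not counted for trametinib. Whether these members stand out from other genes is therefore not known. MAD2L1, a checkpoint protein, was lower in AsPC-1 (-0.129 and -0.095) and slightly higher in PANC-1 (0.040 and 0.025), a difference of 0.15 (adjusted p = 0.541). NUF2 was higher in AsPC-1 (0.147 and 0.137) and at -0.001 and -0.026 in PANC-1, a difference of -0.16 (adjusted p = 0.526). ECT2, the activator of RhoA in cytokinesis, had -0.017 and -0.043 in PANC-1 against 0.138 and 0.084 in AsPC-1, a difference of -0.14 (adjusted p = 0.532). TPX2 had -0.009 and -0.066 in PANC-1 against 0.026 and 0.009 in AsPC-1, a difference of -0.06 (adjusted p = 0.754).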

How the results depend on the processing

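Of 432 values of 31 summary results under the alternatives, 384 stayed close to the value reported. For most medians close meant within the SD of that median between matched comparisons, whatever its sign. With quantile normalization the median for trametinib in AsPC-1 went from 0.019 to -0.008 and still counted as close. So did that for roseoflavin in AsPC-1, from -0.004 to 0.021. The 384 also hold counts past the adjusted threshold that were 0 for both compounds under every alternative. For roseoflavin in PANC-1, 32 or 33 members stayed below 0 without any 1 library, with medians from -0.163 to -0.134, and no alternative with all libraries gave fewer than 33. No paired analysis was possible because each group has 1 library and the labels give no replicate numbers to pair; the comparisons within a line are part of the model reported. Depth is unknown, so what depth limits could not be given. The causes of the shifts below were not tested.

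With quantile normalization, members with a lower value numbered 12 for roseoflavin in AsPC-1, 19 for trametinib in AsPC-1 and 16 for PANC-1 against AsPC-1. The medians were -0.007 for trametinib in PANC-1, -0.200 for the roseoflavin difference between the lines, -0.076 for the product of the compounds and 0.040 between the lines. With TPM recomputed without mitochondrial transcripts, 23 members were lower with trametinib in PANC-1 and 12 in PANC-1 against AsPC-1. The medians were -0.181 for roseoflavin in PANC-1, -0.010 for trametinib in PANC-1, -0.207 for the roseoflavin difference between the lines, -0.082 for the product and 0.107 between the lines. UBE2C with roseoflavin in PANC-1 was then -0.006.

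Between the lines the sign turned under both scalings for CCNB1 (-0.170 with quantile normalization, -0.142 without mitochondrial transcripts), AURKA (-0.244, -0.183), AURKB (-0.361, -0.275), MAD2L1 (-0.272, -0.125), NDC80 (-0.359, -0.217) and KIF4A (-0.139, -0.051). It turned with quantile normalization for CENPE (-0.141), KIF11 (-0.043), KIF20A (-0.073) and MKI67 (-0.065).

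With each library left out in turn, the median ranged from -0.033 to 0.007 for roseoflavin in AsPC-1, from -0.179 to -0.126 for the roseoflavin difference between the lines, from -0.009 to 0.006 for trametinib in PANC-1, from -0.060 to 0.015 for the trametinib difference between the lines and from -0.104 to 0.018 for the product. Members with a lower value ranged from 12 to 19 for trametinib in AsPC-1 (19 without its vehicle or trametinib library), from 6 (without AsPC-1 roseoflavin) to 22 (without AsPC-1 vehicle) for trametinib over both lines, and from 13 (without AsPC-1 roseoflavin) to 31 for the product. PTTG1 with roseoflavin in PANC-1 ranged from -0.185 to 0.002 (0.002 without the PANC-1 trametinib or combination library), and CCNB1 with trametinib in PANC-1 from -0.004 (without the PANC-1 vehicle or trametinib library) to 0.147.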
